A study of Rattus with 6 samples.

Results

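The kinases that phosphorylate SR proteins were followed in H9C2 cells, a myoblast line from embryonic rat heart, when the splicing factor RBM25 was overexpressed. The 8 genes Clk1, Clk2, Clk3, Clk4, Srpk1, Srpk2, Dyrk1a and Prpf4b were taken by their symbols, with no threshold on their values. All 8 have a row among the 20742 genes of the count table, and all 8 passed the filter on low counts. Polyadenylated RNA was sequenced in 3 libraries of cells with a control plasmid and 3 of cells that overexpressed RBM25 from a plasmid. All libraries come from the same line, and both groups carry a plasmid. The labels state neither separate cultures nor the promoter of the plasmid, so the p-values cover only the variation among these libraries, some of which may be technical. The comparison asks whether raising RBM25 goes with a change in the level of these kinases.

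SR proteins are splicing factors that carry a domain rich in arginine-serine dipeptides, and phosphate groups on those serines set where the proteins go and what they bind. The SRPK kinases work mainly in the cytoplasm, where they phosphorylate SR proteins so that these can enter the nucleus. The CLK kinases work in the nucleus, add further phosphates and release SR proteins from nuclear speckles to sites of splicing. DYRK1A, a dual-specificity kinase, and the PRP4 kinase, which is encoded by Prpf4b and acts on proteins of the spliceosome as it is activated, are relatives of the CLKs. RBM25 itself is an RNA-binding protein with an arginine-rich region that helps the U1 snRNP to select splice sites.

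Libraries held 25543849 to 33130256 counted reads. Rbm25 was at 49.2, 44.5 and 45.7 CPM (reads of the gene per 1000000 counted reads) in control replicates 1, 2 and 3 and at 56.3, 55.9 and 60.1 CPM in RBM25 replicates 1, 2 and 3. This is a rise of 23.5% without overlap between the groups (log2 fold change 0.30 ± 0.047 SE; edgeR BH-adjusted p = 0.0011, with the Benjamini-Hochberg adjustment over all tested genes). An exact two-sided permutation test gave p = 0.1, as low as 3 libraries against 3 can go. Its call did not hold without control replicate 2 (log2 fold change 0.28, edgeR BH-adjusted p = 0.0842, the highest of the 6 fits that left out 1 library). Rbm25l1, an RBM25-like gene, went from a mean of 0.0570 to 3.94 CPM and had the smallest p of all tested genes. How reads from the plasmid were divided between these 2 rows, or lost, was not tested, so the rise of the Rbm25 row is not a measure of the whole excess of RBM25 RNA. The muscle markers summed to 523 to 542 CPM in controls and 537 to 587 CPM with RBM25, most of it from Casq2 and Tnnt2, and 7 of 8 passed the filter, Actn2 being the exception with 18 reads in all. The fibroblast list summed to 22999 to 25270 CPM in controls, mostly from the collagen genes Col1a1 and Col1a2, while Dcn and Lum had no reads listed and Pdgfra had 5 reads in all. The leukocyte list summed to 38.2 to 41.5 CPM in controls and 37.6 to 42.3 CPM with RBM25, mostly from Cd14, with Cd3e behind it and no reads listed for Ptprc and Itgam. The epithelial list summed to 780 to 838 CPM in controls and 756 to 903 CPM with RBM25, nearly all from Krt7, with 1 read of Epcam and 2 of Cdh1 in all. The endothelial markers summed to less than 1 CPM in every library. None of the 5 marker lists had a called member, and the range of the summed level of each overlapped between the groups. RBM25 replicate 3 was the least like its group, with a chi-square of 6.22 and 4.79 per degree of freedom towards replicates 1 and 2, which differed by 3.21. It was also the highest or lowest of the 6 libraries for 6 of the 8 kinases, where 39% of all tested genes had their extreme value there. Values with and without it are given for each kinase.

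The kinases were compared with each other per gene length, on the authors' FPKM scale, which divides reads by gene length and library size. In the control cells Srpk1 was the most abundant at 19.6 ± 0.346 FPKM (SD, n = 3), followed by Clk1 at 14.1 ± 1.03 FPKM. Clk2 (11.2 ± 0.538 FPKM), Dyrk1a (10.8 ± 0.115 FPKM), Clk3 (10.4 ± 0.0462 FPKM) and Srpk2 (9.26 ± 0.119 FPKM) lay close together. Prpf4b (2.93 ± 0.158 FPKM) and Clk4 (2.77 ± 0.230 FPKM) were the lowest. Clk2 and Dyrk1a overlapped among the control libraries, as did Prpf4b and Clk4, while the other neighbours in this order did not. With RBM25 the order was the same, and Dyrk1a and Clk3 overlapped as well. The median tested gene had a mean of 5.43 FPKM, so 6 of the kinases lay above it and Prpf4b and Clk4 below it. The order rests on gene lengths that the authors do not give. Prpf4b and Clk1 had similar reads in controls (26.8 and 28.5 CPM), but the lengths implied by reads and FPKM were 9.13 and 2.02 kb.

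**Figure D1:**
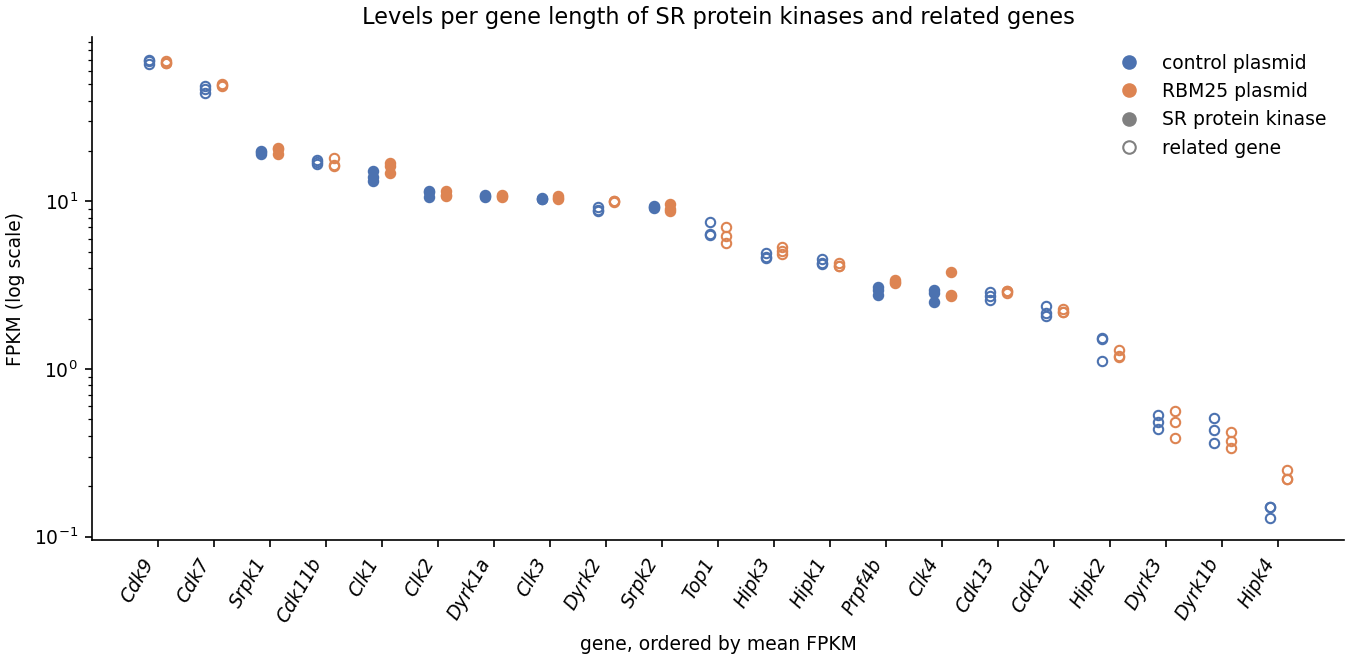
FPKM (log axis) in each library for the 8 SR protein kinases (filled points) and the 13 tested genes of the related kinase list (open points), ordered by mean level, with control libraries in blue and RBM25 libraries in orange. Srpk1 lies highest of the 8 kinases, near 20 FPKM, and Clk4 and Prpf4b lie lowest, near 3 FPKM.

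None of the 8 kinases passed the test of RBM25 against control in edgeR's quasi-likelihood fit over 12882 genes, in which 0.404% of all genes were called (adjusted p under 0.05). DESeq2 also called 0 of the 8. Limma-trend on FPKM called 0 of the 8 as well, but only 2 genes in all on log2(FPKM + 0.1) and 1 on log2(FPKM + 1). Since the limma fits did not call Rbm25 itself, they can say little about the kinases. At an unadjusted p under 0.05 there were 2 kinases, Clk1 and Prpf4b, beside 11.2% of all tested genes. The log2 fold change was above 0 in 5 of the 8, with a median of 0.029, while 48.8% of all tested genes were above 0 and their median was -0.0021. In simulated counts for this comparison on 12882 genes, recovery by edgeR was read for changed genes of at least 10 CPM, a floor that every kinase met. It was 97.1% of 35 genes at a change of 2-fold, 100% of 31 at 1.5-fold, 63.6% of 33 at 1.2-fold and 16.7% of 36 at 1.1-fold. The noise was independent between simulated libraries, with none set apart like RBM25 replicate 3, so recovery in the real libraries may differ. The simulation also gave 118 calls, against 52 in the real data, which eases the adjusted threshold. These rates pool genes of all levels above the floor. They are not a rate for Clk4, which lay near the floor (11.1 CPM in controls) with the largest SE of the 8 (0.11). The 95% intervals of the fold changes, unadjusted, ran from 0.917 at the lowest (Clk2) to 1.30 at the highest (Clk4).

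**Figure D2:**
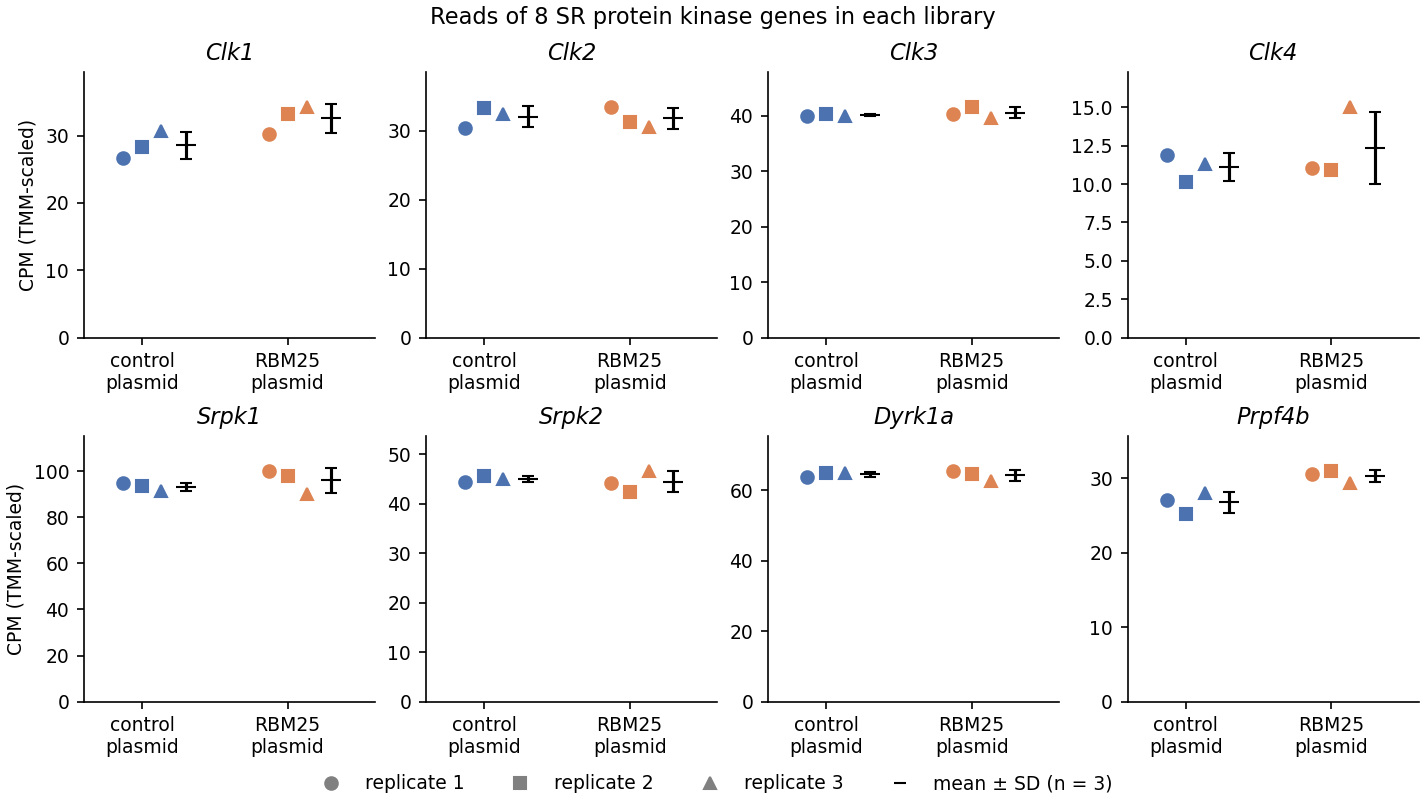
CPM scaled by TMM factors in each library for the 8 kinases, with a marker for each replicate and the mean ± SD (n = 3) beside each group. Prpf4b is the kinase without overlap between the groups, Clk1 overlaps by 1 library on each side, and the wide SD of Clk4 comes with RBM25 replicate 3 at 15.0 CPM.

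Clk1, on chromosome 9, is the best studied of the nuclear CLK kinases, and its own transcript is known to be alternatively spliced. It was at 26.7, 28.2 and 30.7 CPM in control replicates 1, 2 and 3 and at 30.2, 33.2 and 34.3 CPM in RBM25 replicates 1, 2 and 3. The groups overlapped only in that control replicate 3 was above RBM25 replicate 1. The fold change was 1.14 (log2 0.19 ± 0.061 SE, edgeR BH-adjusted p = 0.207), with an interval of 1.04 to 1.24 and the largest size of the 8. Replicates varied by 7.17% (CV) in controls and 6.51% with RBM25, where counting alone gives 3.51% and 3.16%. Without RBM25 replicate 3 the log2 fold change was 0.15 (edgeR BH-adjusted p = 0.217), and without control replicate 3 it was 0.25 (edgeR BH-adjusted p = 0.198). Over the 6 fits that left out 1 library, the edgeR BH-adjusted p ran from 0.0842 to 0.655.

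Prpf4b, on chromosome 17, encodes the PRP4 kinase. It was at 27.1, 25.3 and 28.0 CPM in control replicates 1, 2 and 3 and at 30.5, 31.0 and 29.3 CPM in RBM25 replicates 1, 2 and 3. Every RBM25 library was above every control library, as for 8.31% of all tested genes, and no other kinase of the 8 had this. The fold change was 1.13 with an interval of 1.04 to 1.23 (log2 0.18 ± 0.057 SE, edgeR BH-adjusted p = 0.191). Without RBM25 replicate 3 the log2 fold change was 0.20 (edgeR BH-adjusted p = 0.0647). Without control replicate 2, the lowest library, it was 0.14 (edgeR BH-adjusted p = 0.663), and these were the lowest and highest p of the 6 fits that left out 1 library. With 9.13 kb, the length implied by its reads and FPKM, Prpf4b was the longest of the 8 genes, and removing each library's trend with length gave 0.16 (edgeR BH-adjusted p = 0.254).

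Clk4, on chromosome 10, is a close relative of Clk1 and the kinase with the fewest reads (290 to 420 per library). It was at 11.9, 10.1 and 11.3 CPM in control replicates 1, 2 and 3 and at 11.1, 10.9 and 15.0 CPM in RBM25 replicates 1, 2 and 3. RBM25 replicate 3 alone was high, and the other RBM25 libraries lay within the control range. The spread in the RBM25 group was 18.9% (CV), against 5.15% from counting and 8.24% in the controls. The log2 fold change of 0.15 ± 0.11 SE (edgeR BH-adjusted p = 0.678) turned to -0.014 (edgeR BH-adjusted p = 0.969) without RBM25 replicate 3; over the 6 fits that left out 1 library the edgeR BH-adjusted p was 0.525 to 0.969. How the authors counted reads that fit both Clk1 and Clk4 is not stated in the labels, so a split of shared reads between these relatives was not tested.

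Clk2 and Clk3 are the other CLK kinases. Clk2, on chromosome 2, was at 30.3, 33.3 and 32.4 CPM in control replicates 1, 2 and 3 and at 33.4, 31.3 and 30.6 CPM in RBM25 replicates 1, 2 and 3. The groups covered nearly the same range, with a fold change of 0.992 and an interval of 0.917 to 1.07 (edgeR BH-adjusted p = 0.967). Its log2 fold change of -0.011 turned to 0.014 without RBM25 replicate 3, to 0.0024 without RBM25 replicate 2 and to 0.019 without control replicate 2. Clk3, on chromosome 8, was at 40.0, 40.4 and 39.9 CPM in the controls and at 40.3, 41.6 and 39.6 CPM with RBM25, in the same replicate order. It was the steadiest kinase of the control group (CV 0.590%, below the 2.96% of counting alone), and its fold change was 1.01 with an interval of 0.945 to 1.08 (edgeR BH-adjusted p = 0.939). Its log2 fold change of 0.015 was 0.030 without RBM25 replicate 3 and turned to -0.0017 without RBM25 replicate 2. A change of Clk2 or Clk3 as large as the 1.14-fold difference of Clk1 lay outside their intervals. The differences between the kinases' fold changes were not tested gene by gene.

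**Figure D3:**
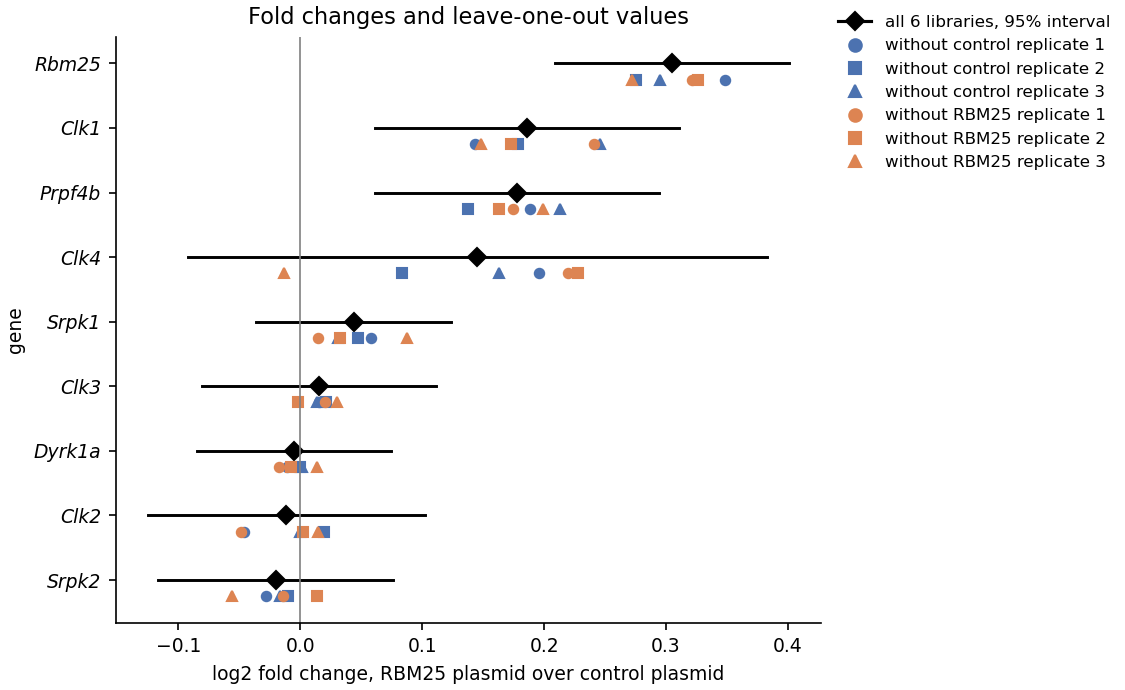
Log2 fold change (RBM25 plasmid over control plasmid) of Rbm25 and the 8 kinases, as diamonds with 95% intervals from edgeR, and the value with each library left out as small markers under them. The intervals of Rbm25, Clk1 and Prpf4b lie above 0 before adjustment over all genes, and only Rbm25 passed after it. Clk4 moves to -0.014 without RBM25 replicate 3.

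The makeup of the CLK family was also compared, as each gene's share of the summed FPKM of the 4 CLKs. Clk1 made up 35.5%, 36.2% and 38.2% in control replicates 1, 2 and 3 and 37.4%, 40.2% and 40.7% in RBM25 replicates 1, 2 and 3. Its mean share was 36.6 ± 1.44% in controls and 39.4 ± 1.74% with RBM25 (SD, n = 3), with overlap between the groups (exact permutation p = 0.2, adjusted over the 4 shares p = 0.4). The mean share of Clk2 was 29.0 ± 0.942% in controls and 27.2 ± 1.89% with RBM25 (exact permutation p = 0.3, adjusted 0.4; SD, n = 3). That of Clk3 was 27.1 ± 0.939% and 25.8 ± 0.972% (exact permutation p = 0.3, adjusted 0.4; SD, n = 3), and that of Clk4 7.22 ± 0.739% and 7.55 ± 1.29% (exact permutation p = 0.8, adjusted 0.8; SD, n = 3). The shares are bound to add up to a whole, and no p under 0.1 is possible with 3 libraries against 3. The difference in the Clk4 share, 0.325 percentage points, turned to -0.415 without RBM25 replicate 3 and to -0.016 without control replicate 2. By FPKM, Clk1 was the main CLK and Clk4 the least in both groups. The place of Clk1 rests on gene lengths that the authors do not give. In reads Clk3 was above it (40.1 against 28.5 CPM in controls).

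**Figure D4:**
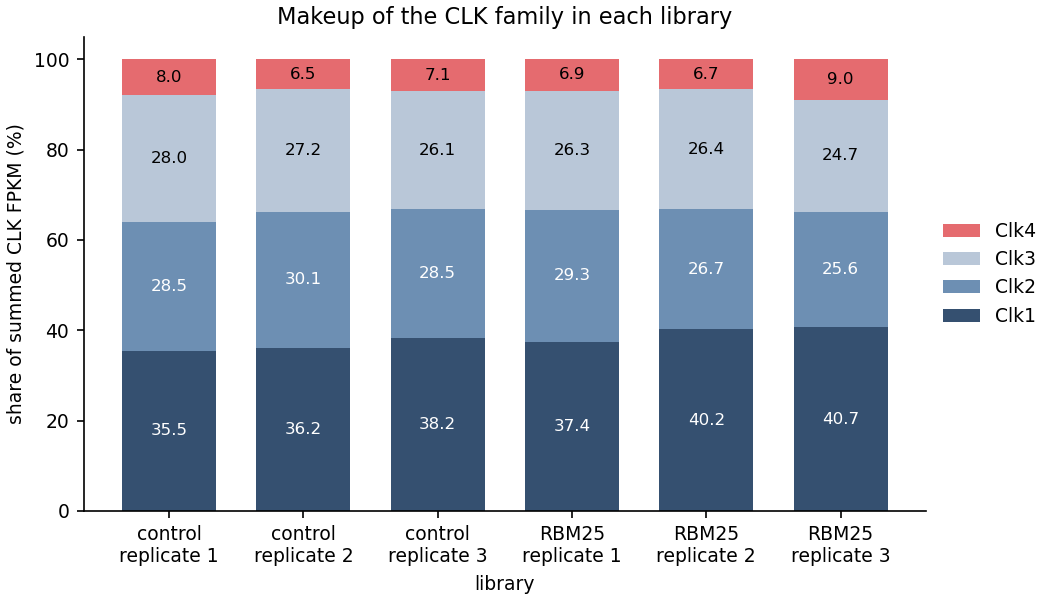
Share (%) of each CLK in the summed FPKM of Clk1, Clk2, Clk3 and Clk4, stacked for each of the 6 libraries. Clk1 takes 35.5% to 38.2% in controls and 37.4% to 40.7% with RBM25, and Clk4 has its highest share, 9.03%, in RBM25 replicate 3.

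The SRPK kinases lay on either side of no change, and neither passed. Srpk1, on chromosome 20, was at 94.8, 93.5 and 91.4 CPM in control replicates 1, 2 and 3 and at 100.2, 97.9 and 90.0 CPM in RBM25 replicates 1, 2 and 3. RBM25 replicates 1 and 2 were above all controls, while RBM25 replicate 3 was the lowest of the 6 libraries. The log2 fold change was 0.044 ± 0.039 SE, with a fold interval of 0.975 to 1.09 (edgeR BH-adjusted p = 0.73). It was 0.087 without RBM25 replicate 3 (edgeR BH-adjusted p = 0.223, the lowest of the 6 fits that left out 1 library, where the highest was 0.948). Srpk2, on chromosome 4, was at 44.4, 45.6 and 45.1 CPM in the controls and at 44.2, 42.5 and 46.7 CPM with RBM25, in the same replicate order. Here RBM25 replicate 3 was the highest library and RBM25 replicate 2 the lowest. Srpk2 had a log2 fold change of -0.020 ± 0.047 SE (fold interval 0.922 to 1.05, edgeR BH-adjusted p = 0.913), which turned to 0.014 without RBM25 replicate 2 and was -0.056 without RBM25 replicate 3. By FPKM, Srpk1 made up 67.9 ± 0.608% of the sum of the 2 genes in controls and 68.8 ± 2.12% with RBM25 (SD, n = 3), with overlap.

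Dyrk1a, on chromosome 11, also phosphorylates splicing factors outside the SR family and the NFAT transcription factors of calcium signalling. It was at 63.8, 64.9 and 65.0 CPM in control replicates 1, 2 and 3 and at 65.6, 64.7 and 62.6 CPM in RBM25 replicates 1, 2 and 3. RBM25 replicate 1 was above and RBM25 replicate 3 below all controls, and the fold change of Dyrk1a was the nearest to 1 of the 8 (0.997, interval 0.943 to 1.05, edgeR BH-adjusted p = 0.977). It had spreads of 1.02% (CV) in controls and 2.38% with RBM25, and counting alone gives 2.34% and 2.24%. Its log2 fold change of -0.0050 turned to 0.013 without RBM25 replicate 3 and to 0.0015 without control replicate 3. It was also above 0 with upper-quartile factors (0.0012), which moved the median of all genes from -0.0021 to 0.0041.

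Summed over the 8 kinases, the level was 79.8, 81.1 and 82.3 FPKM in control replicates 1, 2 and 3 and 83.9, 84.2 and 84.6 FPKM in RBM25 replicates 1, 2 and 3. The sums did not overlap, but their difference was small, with means of 81.1 ± 1.23 and 84.2 ± 0.345 FPKM (SD, n = 3). Of the difference of 3.14 FPKM, Clk1 gave 1.99 FPKM, Srpk1 0.577 FPKM, Prpf4b 0.38 FPKM and Clk4 0.313 FPKM. This sum is a description of the chosen genes, not a test.

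Prpf4b had the smallest p of the 8, and its pattern over the 6 libraries was compared with that of 7354 genes of at least 4 mean log2 CPM. The measure was the mean absolute difference between log2 CPM values centred on each gene's own mean, whose median over these genes was 0.099. The 5 most alike were Pcmtd1 (0.012), Pspc1 (0.013), Smarcad1 (0.017), Met (0.022) and Stxbp6 (0.023). Pspc1 encodes a protein of nuclear paraspeckles, Smarcad1 a chromatin remodeller and Met the receptor of hepatocyte growth factor. Each had control replicate 2 as its lowest library, as Prpf4b did. This and their similar fold changes follow from the choice by likeness and are not a separate result. None of the 5 passed the test, with log2 fold changes of 0.13 to 0.19 and edgeR BH-adjusted p from 0.147 to 0.324.

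Genes that work with the kinases were read from 6 lists with 63 genes, of which 62 were listed and 58 tested. None of the 58 passed over all genes, beside 0.404% of all genes, and 9 had an unadjusted p under 0.05, beside 11.2% of all genes. Among 12 tested SR proteins, the substrates, all 12 had a log2 fold change above 0 (0.013 to 0.14, median 0.040). Of all tested genes 48.8% were above 0, with a median of -0.0021. In edgeR 4 of the 12 had an unadjusted p under 0.05, and 0 of 12 passed. The 12 were measured in the same libraries, so their directions are not independent. Tra2a, a splicing activator of the same kind, was at 94.5, 91.0 and 94.5 CPM in control replicates 1, 2 and 3 and at 99.8, 104.3 and 105.4 CPM in RBM25 replicates 1, 2 and 3. Tra2a was not called, at a log2 fold change of 0.14 ± 0.036 SE (edgeR BH-adjusted p = 0.0685). Nor was the SR protein gene Srsf5, at 0.13 ± 0.035 SE (edgeR BH-adjusted p = 0.0912). These genes and Srsf7, named here after its values were seen (0.11 ± 0.035 SE, edgeR BH-adjusted p = 0.194), were the 3 of 12 without overlap upward, beside 8.31% of all genes.

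The next list held 8 tested genes, of phosphatases that remove phosphate from SR proteins and of regulatory subunits of phosphatase. Of these 8, 0 passed in edgeR, and 6 had a log2 fold change below 0 (median -0.032, beside -0.0021 for all tested genes). Ppp1r10, a nuclear targeting subunit of protein phosphatase PP1, was at 53.6 ± 2.18 CPM in controls and 50.1 ± 1.70 CPM with RBM25 (SD, n = 3; log2 fold change -0.10 ± 0.045 SE, edgeR BH-adjusted p = 0.388). Ppm1g, a nuclear phosphatase, had a log2 fold change of -0.044 ± 0.032 SE (edgeR BH-adjusted p = 0.647). Among 12 tested partners of SRPK and factors of SR protein import, 7 were below 0 (median -0.015) and 0 passed. Hsp90ab1, a gene of the HSP90 chaperone that holds client kinases, was at 2531 ± 50.5 CPM in controls and 2382 ± 23.3 CPM with RBM25 (SD, n = 3). It was lower without overlap, beside 7.94% of all genes (log2 fold change -0.087 ± 0.026 SE, edgeR BH-adjusted p = 0.133). Akt2, a kinase of growth factor signalling, had a log2 fold change of -0.078 ± 0.033 SE (edgeR BH-adjusted p = 0.364) and no overlap either. The other HSP90 gene of the list, Hsp90aa1, was added with its values already known and went the other way. It was at 419 ± 38.7 CPM in controls and 453 ± 6.33 CPM with RBM25 (SD, n = 3), with overlap. Hsp90aa1 was not called (log2 fold change 0.11 ± 0.056 SE, edgeR BH-adjusted p = 0.514). Ahsa1, a co-chaperone that activates HSP90, is named here after its values were seen. It was the 1 of 12 without overlap upward, beside 8.31% of all genes (0.033 ± 0.031 SE, edgeR BH-adjusted p = 0.75).

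In the list of 15 related genes, kinases and the topoisomerase Top1, which can also phosphorylate SR proteins, Srpk3, the muscle form of SRPK, had 23 reads in all 6 libraries together and Dyrk4 had 2, and both failed the filter on low counts. Of the 13 tested, 6 were above 0 (median -0.014) and 0 passed in edgeR. Dyrk2, a relative of Dyrk1a, was at 70.7, 71.9 and 74.3 CPM in control replicates 1, 2 and 3 and at 79.6, 80.8 and 79.7 CPM in RBM25 replicates 1, 2 and 3. Its groups did not overlap, as for 3 of the 13 upward, beside 8.31% of all genes. With a log2 fold change of 0.15 ± 0.037 SE (edgeR BH-adjusted p = 0.0729) Dyrk2 stayed short of the threshold. Hipk3, a homeodomain-interacting kinase, had a log2 fold change of 0.11 ± 0.049 SE (edgeR BH-adjusted p = 0.374). The list of tri-snRNP proteins and of spliceosome substrates of the PRP4 kinase and DYRK1A had 6 tested genes, Sf3b1 among them. Of these 6, 2 were above 0 (median -0.013) and 0 passed. Prpf8, the central protein of the spliceosome, had a log2 fold change of -0.057 ± 0.032 SE (edgeR BH-adjusted p = 0.515). It was the 1 of 6 lower without overlap, beside 7.94% of all genes. Sf3b1 had a log2 fold change of 0.045 ± 0.034 SE (edgeR BH-adjusted p = 0.665). Of 7 tested DYRK1A partners and NFAT genes, 3 were above 0 (median -0.015) and 0 passed. Nfatc2 had only 66 reads in all (log2 fold change -0.64 ± 0.39 SE, edgeR BH-adjusted p = 0.57). It was the 1 of 7 lower without overlap, beside 7.94% of all genes. The cyclin gene Ccnd1 had a log2 fold change of 0.044 ± 0.041 SE (edgeR BH-adjusted p = 0.75).

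**Figure D5:**
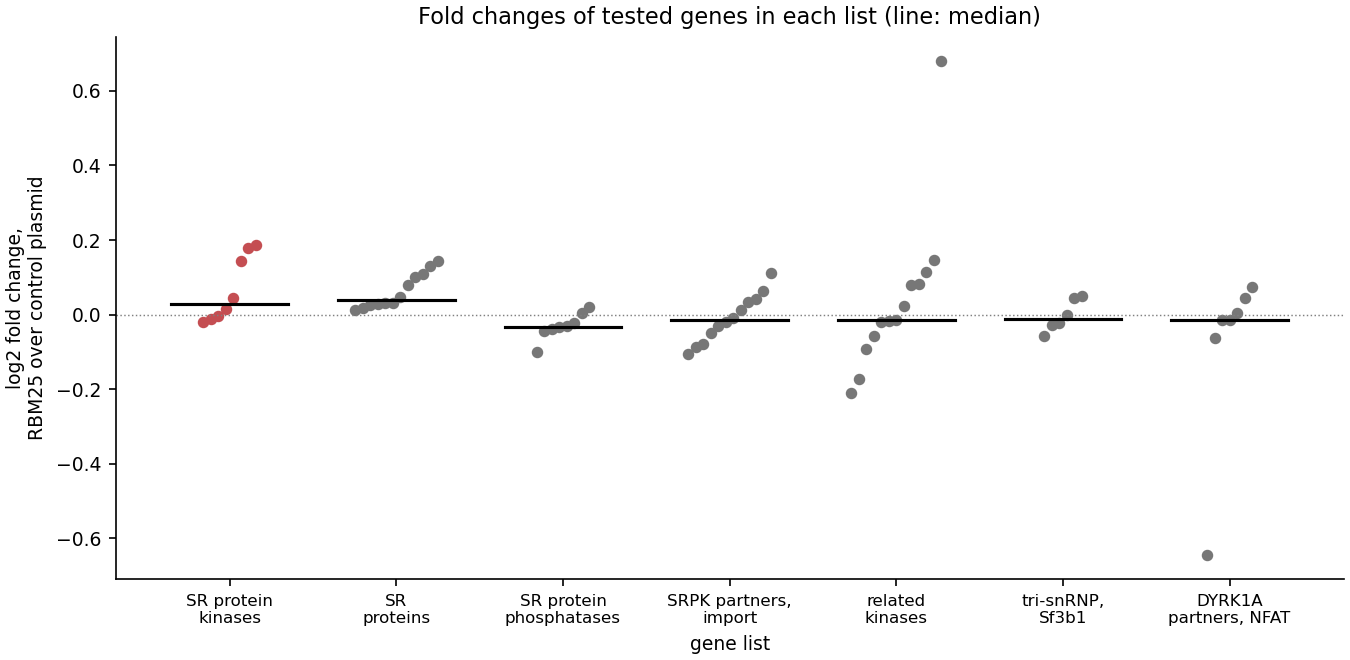
Log2 fold change (RBM25 plasmid over control plasmid) of each tested gene in the list of 8 kinases (red) and in the 6 lists of related genes (grey), with the median of each list as a line. All SR proteins lie above 0, and the 2 genes farthest from 0, Hipk4 and Nfatc2, have few reads.

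The deposited values are per gene. They do not separate spliced from intron-retaining or exon-skipping forms of a kinase transcript, and splicing of the kinases was not analysed here.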

How the data were processed

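Poly(A) RNA of 6 H9C2 libraries was made into strand-marked libraries and sequenced as read pairs, per the labels' protocols. Per the submitters' processing notes, HISAT2, DESeq2 and the build mRatBN7.2 were used, without versions. The labels name neither the program that counted reads nor its annotation or strand setting. The deposited counts are whole reads per gene, not normalized (20742 genes). The deposited FPKM values (20395 genes) were rounded by the authors to 2 decimals, and their gene lengths are not given. Genes with close copies or overlaps are uncertain.

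The test of counts used edgeR 4.0.16 (R 4.3.3) with filterByExpr (minimum count 10, 12882 genes kept), TMM factors (0.996 to 1.01), robust quasi-likelihood F-tests with group as the only term, and Benjamini-Hochberg adjustment over all tested genes. The SE is the log2 fold change over the square root of F, and 95% intervals use the fit's degrees of freedom. CPM are scaled by TMM. Alternatives were DESeq2 1.42.0, upper-quartile factors, no filter, limma 3.58.1 (trend) on log2(FPKM + 0.1) and log2(FPKM + 1), offsets for a length trend, a replicate block and leaving out each library. The script was tested on simulated counts, where 10 of 118 calls were unchanged genes.

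The kinases and lists were chosen with earlier results of these data known. Genes named by rule are the 8 kinases, Rbm25, up to 2 members with the smallest p per list, and the 5 genes most like the kinase with the smallest p. Others were named outside this rule, among them Rbm25l1, Srsf7, Hsp90aa1, Ahsa1 and Hipk4, with their values known. No sequences or coordinates are shown.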

Additional observations from a re-analysis of the deposited data

How the results depend on the processing

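None of the 8 kinases was called in 12 of the 13 alternatives run. The exception was the fit with the replicate number as a replicate block, which called 2 of them, Clk1 (log2 fold change 0.19, edgeR BH-adjusted p = 0.0205) and Prpf4b (0.18, adjusted p = 0.0469), and 436 genes in all, the 52 of the unblocked fit among them. The numbers showed no clear pairing of the samples. Deviations of same-numbered libraries from their group means correlated at 0.044, -0.066 and -0.0073 across genes, and only those of number 1 correlated best with each other. With 3 libraries per group, these correlations cannot settle whether the samples were paired. The count of genes called was 52 (46 higher, 6 lower), 205 without a filter on low counts, 2 with limma on log2(FPKM + 0.1), 1 on log2(FPKM + 1), and 5 to 352 without 1 library, lowest without control replicate 2 and highest without RBM25 replicate 3 (21 without control replicate 3). The Rbm25 log2 fold change of 0.30 did not pass on log2(FPKM + 0.1) (0.30) or log2(FPKM + 1) (0.28), and was 0.27 to 0.35 without 1 library. The log2 fold changes of Clk1 (0.14 to 0.25), Prpf4b (0.13 to 0.21) and Srpk1 (0.014 to 0.087) stayed above 0 in all 13 alternatives. Leaving out 1 library turned the sign of the others, with ranges of -0.048 to 0.019 for Clk2, -0.0017 to 0.030 for Clk3, -0.014 to 0.23 for Clk4, -0.056 to 0.014 for Srpk2 and -0.017 to 0.013 for Dyrk1a, which was also at 0.0012 with upper-quartile factors. When 1 library was left out, the difference in CLK share (RBM25 minus control, percentage points) was 2.18 to 3.79 for Clk1, -2.87 to -1.03 for Clk2, -1.78 to -0.731 for Clk3 and -0.415 to 0.761 for Clk4, the last with a turned sign without RBM25 replicate 3 or control replicate 2. Where calls differed, the cause was not tested. With 290 to 3304 reads per kinase and library, changes near 1.1-fold were mostly below what the test recovers.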
